A study of Homo sapiens with 8 samples.

Results

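The genes described here are a set of oncofetal genes: the IGF2 mRNA-binding proteins IGF2BP1, IGF2BP2 and IGF2BP3, the let-7 regulators LIN28A and LIN28B, the architectural chromatin proteins HMGA1 and HMGA2, and the growth factor IGF2. They were taken by symbol from a table of read counts per gene. Of the 8 genes listed, 7 were matched to a row among the 23562 rows of the table, and IGF2 was not analysed here. The members were selected on measured values: the counts of IGF2BP1, which were 0 in the library sgCEBPD 3. That absence is therefore given as a description and supports nothing. The line was OCI-AML5, established from a human acute myeloid leukemia. Cells were transduced with lentiCRISPRv2, a lentiviral vector that delivers Cas9 with a guide RNA. The 4 control libraries (sgControl 1 to 4) carried non-specific guides, which the labels number 1 to 4. The 4 libraries sgCEBPD 1 to 4 carried guides, also numbered 1 to 4, against CEBPD, which encodes the transcription factor C/EBP delta. Polyadenylated RNA was sequenced. All groups share the line, the vector and Cas9, and the labels name no clone and no time after transduction.

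Oncofetal genes are active in the embryo, silent or low in most adult tissues, and often active again in tumours. The microRNA let-7 accumulates as cells differentiate and lowers the mRNAs of LIN28B, HMGA2 and IGF2BP1, among others. The LIN28 proteins bind the let-7 precursor and block its maturation, which closes a loop of mutual repression. The IGF2BP proteins bind mRNAs, many of them methylated on adenosine (m6A), and lengthen their life. In fetal blood stem cells LIN28B, HMGA2 and IGF2BP family members are known parts of the fetal programme.

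The let-7 sequences and their sites are shown first because let-7 links most of the members. Several of them are textbook let-7 targets, so the sites are shown as a description of known targets and test nothing. RefSeq (GRCh38.p14) lists 9 distinct mature let-7 and miR-98 sequences from 12 loci, and all 9 have the same seed, bases 2 to 8. Shown are 4 of them, with the seed in capitals:
hsa-let-7a-5p: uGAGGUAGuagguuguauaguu
hsa-let-7d-5p: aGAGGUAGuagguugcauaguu
hsa-let-7g-5p: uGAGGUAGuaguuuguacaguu
hsa-miR-98-5p: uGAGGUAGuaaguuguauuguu
These 4 sequences differ at the first base and in the tail, and they are identical over the seed. The letters that pair with the seed, CTACCTC, were searched on the sense strand of the 3′ UTRs of all basic protein-coding transcripts of each gene (GENCODE 29, GRCh38). No other motif was searched. Of the 8 listed genes, 7 had at least 1 match, against 10.2% of 19113 genes with a 3′ UTR and 16.7% of the 10010 genes whose longest 3′ UTR had at least 1000 bases. IGF2BP1, LIN28B and HMGA2 had 4 matches each. Only 13 genes, 0.068% of the 19113, had at least 4. IGF2BP2, IGF2BP3, LIN28A and HMGA1 had 1 match each, and these letters are not in the annotated 3′ UTRs of IGF2. These 3 genes also have the longest annotated 3′ UTRs of the set, at 6206 bases for IGF2BP1, 4549 for LIN28B and 7421 for HMGA2.

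The sites of IGF2BP1 and HMGA2 follow, because these are the members that differed most between libraries, with the single sites of the paralogs IGF2BP2 and IGF2BP3 for comparison. All are from GRCh38, are written on the strand of the gene, and have the match to the seed in capitals.
IGF2BP1, plus strand, chr17:49051064-49051085: gtgcgaagtaaaCTACCTCaag
IGF2BP1, plus strand, chr17:49053701-49053722: cagtgctagtaaCTACCTCaca
IGF2BP1, plus strand, chr17:49054355-49054376: taaatggattaaCTACCTCaat
IGF2BP1, plus strand, chr17:49055000-49055021: cttttgttttatCTACCTCtta
HMGA2, plus strand, chr12:65963301-65963322: aacgttcgatttCTACCTCagc
HMGA2, plus strand, chr12:65964536-65964557: cactactcaataCTACCTCtga
HMGA2, plus strand, chr12:65964948-65964969: acttgcaaagacCTACCTCcag
HMGA2, plus strand, chr12:65965801-65965822: caaaacacactaCTACCTCtta
IGF2BP2, minus strand, chr3:185644218-185644239: acacagaagaagCTACCTCagg
IGF2BP3, minus strand, chr7:23311793-23311814: atttttactcaaCTACCTCagg
An adenine directly after the match is bound by Argonaute and is known to strengthen repression. It followed 3 of the 4 matches in IGF2BP1, 2 of 4 in LIN28B and 1 of 4 in HMGA2, and it followed the single matches of IGF2BP2, IGF2BP3 and LIN28A but not that of HMGA1. A match is a description of the sequence, and let-7 itself was not measured in polyadenylated RNA.

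Library totals lay between 10217751 and 11521209 counts. CEBPD itself was at 202 to 216 CPM in the controls and at 107, 209, 195 and 164 CPM in sgCEBPD 1 to 4. An edited gene can still be transcribed, and the labels remain unchecked by these values. The correlation of sgCEBPD 3 with the others, across 13838 genes, was 0.912 to 0.931, against 0.972 to 0.989 among the other 7. Whether this library came from the labelled line was not tested, and each of its values below carries that limit. Markers fixed for the myeloid line were present, such as PTPRC (CD45) at 306 to 365.8 CPM and CD33 at 122 to 143 CPM in the controls. ANPEP (CD13) was under 1 CPM in every library, and CSF2RA was at 0 to 0.454 CPM in the controls and at 1.08 CPM in sgCEBPD 3. The groups were therefore compared in edgeR both with all 8 libraries and without sgCEBPD 3, and sgCEBPD 3 is given apart as a value. At an adjusted p under 0.05, 11 of 13838 genes were called in the 8 libraries (0.0795%; 0.00723% higher and 0.0723% lower in sgCEBPD) and 283 of 14047 in the 7 (2.01%; 0.705% higher and 1.31% lower).

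Levels per exon length used the union of exons over all basic transcripts of a gene, so they compare different genes only roughly. They spread over more than 4 orders of magnitude in the controls. HMGA1 was highest, at 341 ± 6.80 CPM per kb of exon (SD, n = 4). IGF2BP2 followed at 22.1 ± 0.932, and IGF2BP1 at 15.9 ± 0.62 and IGF2BP3 at 15.8 ± 0.62 differed from each other by less than their SD. LIN28B stood lower, at 2.93 ± 0.353. LIN28A was at 0.0227 ± 0.0321 and HMGA2 had no counts in any control. OCI-AML5 thus carried mRNA of all 3 IGF2BP paralogs, of the LIN28B paralog and of the HMGA1 paralog, while LIN28A and HMGA2 were at or near 0 in the controls.

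**Figure D1:**
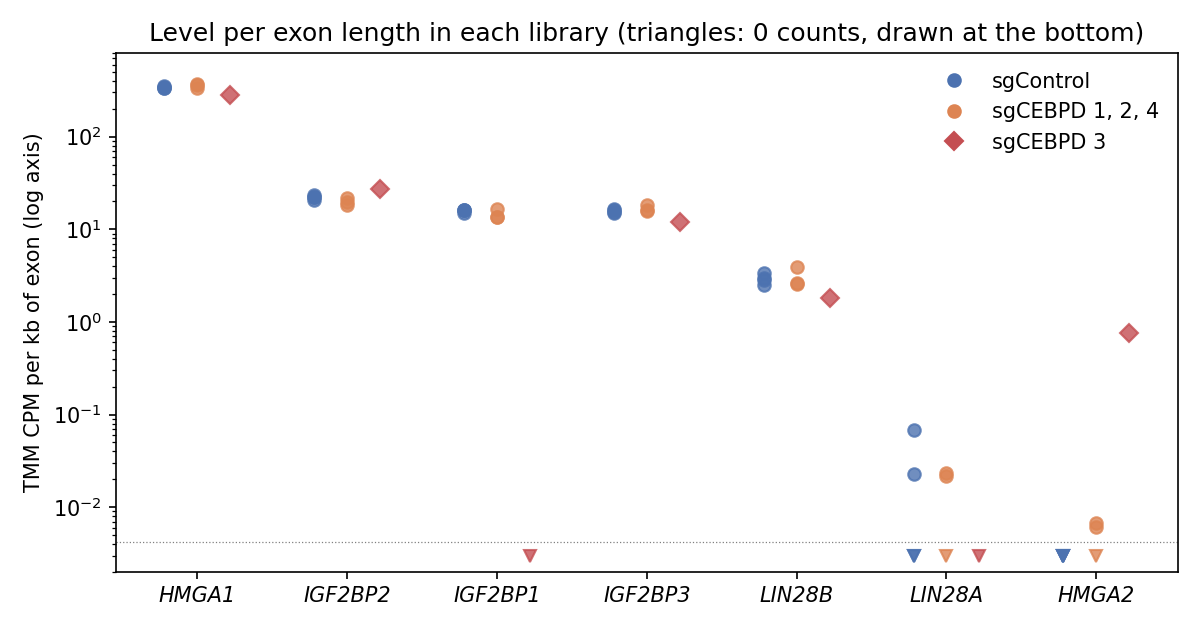
Level of each gene per kb of exon (TMM-normalised CPM per kb, log axis) in each library, with genes in the order of their control level; blue circles are sgControl, orange circles sgCEBPD 1, 2 and 4, red diamonds sgCEBPD 3, and triangles at the bottom are libraries with 0 counts. HMGA1 is highest at about 341 CPM per kb in the controls, and IGF2BP1 and HMGA2 are the genes whose sgCEBPD 3 value lies far from the rest.

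IGF2BP1, an oncofetal RNA-binding protein that steadies mRNAs such as MYC, was abundant in 7 libraries and had 0 counts in the eighth. The controls had 135, 132, 135 and 124 CPM (1539, 1363, 1489 and 1351 counts). In sgCEBPD 1, 2 and 4 it stood at 113, 111 and 136 CPM (1213, 1176 and 1573 counts). The libraries sgCEBPD 1 and 2 lay below every control and sgCEBPD 4 lay above every control, so the groups overlapped. In sgCEBPD 3 it had no count among 10712069, and a count of 0 allows up to 0.295 CPM (3 counts; counting error only). The control mean, 131 ± 5.17 CPM (SD, n = 4), was at least 446-fold higher than that limit, and the mean of sgCEBPD 1, 2 and 4 at least 407-fold higher. These are bulk libraries, so fewer cells with the transcript and less of it per cell cannot be told apart. Among the 2565 rows with 0 counts in sgCEBPD 3, IGF2BP1 had the highest mean in the other 7, at 127 CPM. In all, 18 such rows had a mean over 10 CPM. In the 7 libraries without sgCEBPD 3, edgeR gave IGF2BP1 a log2 fold change (sgCEBPD over sgControl) of -0.13 and a standard error (SE) of 0.07, and the adjusted p was 0.432. The gene lies on chromosome 17 from 48997412 to 49055650 (GRCh38, plus strand).

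IGF2BP2 and IGF2BP3, which bind RNA through the same kinds of domains, did not share this absence. IGF2BP2, the paralog that stays on in many adult tissues, was at 88.8, 80.1, 85.2 and 84.5 CPM in the controls and at 82.9, 70.4 and 74.5 CPM in sgCEBPD 1, 2 and 4. In sgCEBPD 3 it was at 103 CPM, the highest of the 8 libraries and 1.28 times the mean of the other 7. The libraries sgCEBPD 2 and 4 were its lowest. IGF2BP3, a paralog known for its part in leukemias with KMT2A rearrangement, was at 65.5, 64.3, 68.2 and 70.2 CPM in the controls. It was at 67.8, 77.6 and 66.4 CPM in sgCEBPD 1, 2 and 4, and at 50.9 CPM in sgCEBPD 3, the lowest library, at 74.2% of the mean of the other 7. The 2 paralogs thus lay on opposite sides of the other libraries in sgCEBPD 3, and in neither gene did the groups separate. With all 8 libraries the log2 fold change was -0.03 (SE 0.12) for IGF2BP2 (adjusted p = 0.915 in edgeR) and -0.03 (SE 0.12) for IGF2BP3 (adjusted p = 0.923 in edgeR). Without sgCEBPD 3, IGF2BP2 was at -0.16 (SE 0.06), and edgeR gave an unadjusted p of 0.0349 and an adjusted p of 0.278. IGF2BP3 was at 0.07 (SE 0.07, adjusted p = 0.671 in edgeR). IGF2BP2 lies at chr3:185643739-185825056 and IGF2BP3 at chr7:23310209-23470467, both on the minus strand. Exons of IGF2BP3 share bases with those of MALSU1, whose row was at 24.1 to 30.1 CPM in 7 libraries and at 19.1 CPM in sgCEBPD 3. Whether the counting used strand is not stated in any label, and reads of such gene pairs cannot be told apart.

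**Figure D2:**
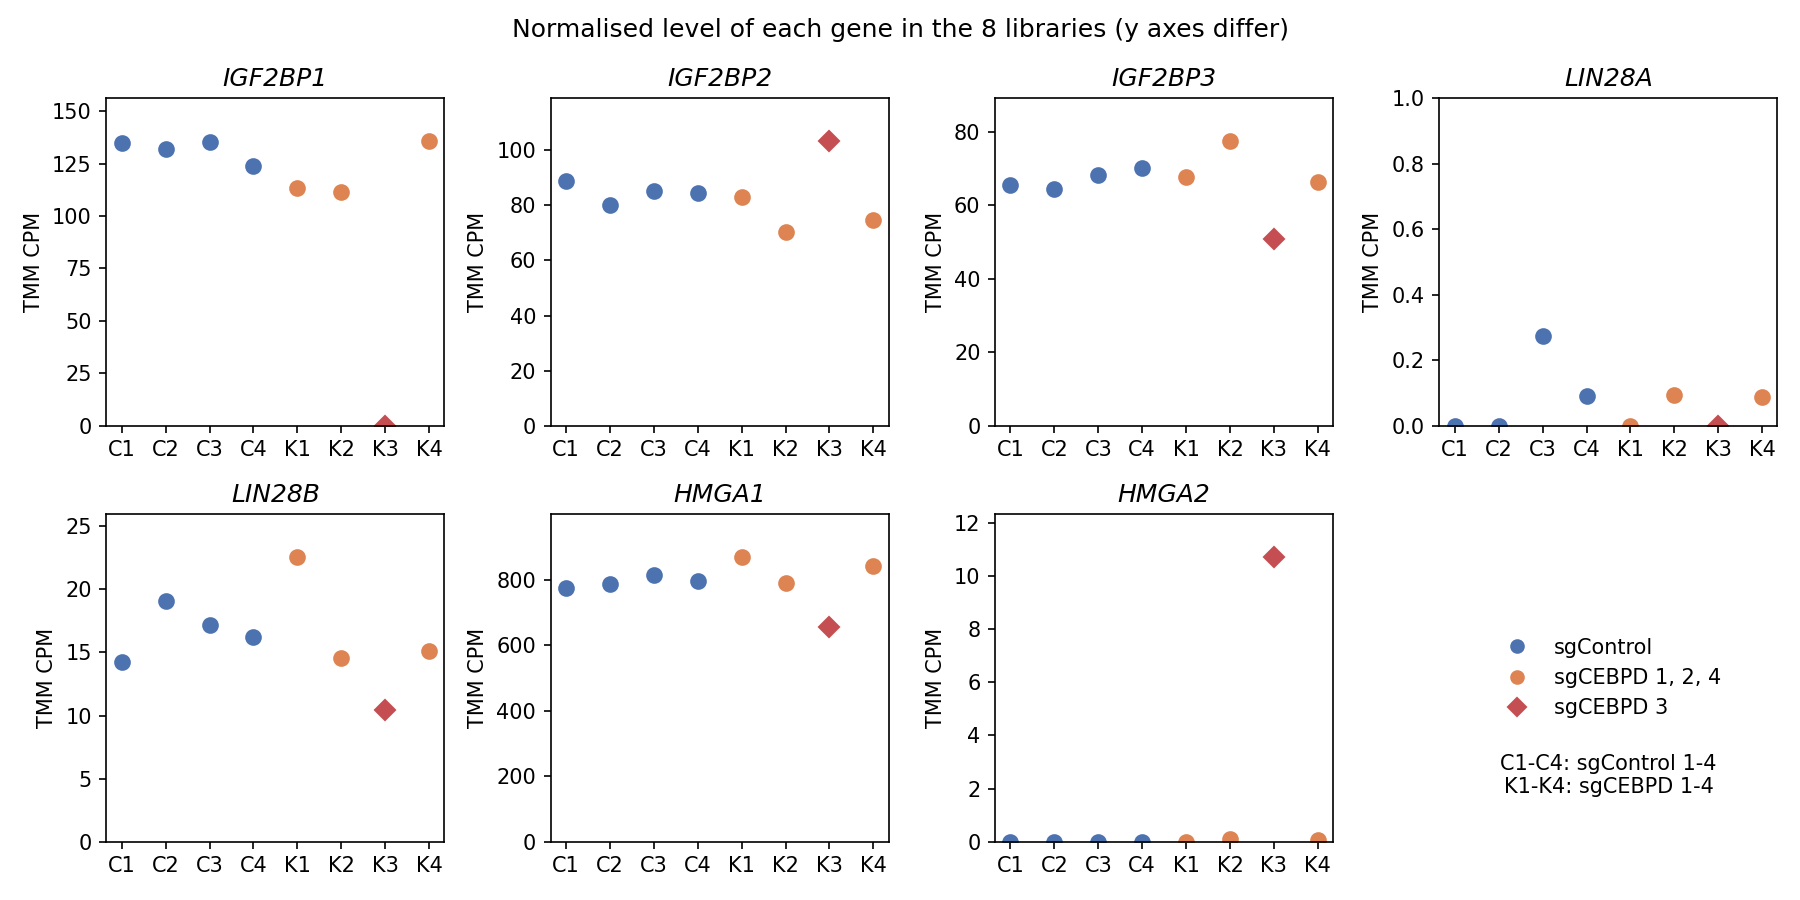
TMM-normalised CPM (y axes differ and start at 0) of the 7 genes analysed in each library, C1 to C4 for sgControl 1 to 4 and K1 to K4 for sgCEBPD 1 to 4; blue is sgControl, orange sgCEBPD 1, 2 and 4, and the red diamond sgCEBPD 3. IGF2BP1 is at 0 and HMGA2 at 10.7 CPM in sgCEBPD 3, IGF2BP2 is highest there, and IGF2BP3, LIN28B and HMGA1 are lowest there.

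LIN28B, which holds back let-7 maturation in the fetal liver, was expressed at a low level and varied most among the members detected in every control. The controls had 14.3, 19.1, 17.2 and 16.2 CPM, from 163 to 197 counts. The coefficient of variation was 12.05% against 2.00% to 4.21% for HMGA1 and the IGF2BP genes. HMGA1 had 8119 to 8951 counts in the controls. Counting error alone gives a gene with fewer counts a larger coefficient of variation, and it was not separated here. It was at 22.5, 14.6 and 15.1 CPM in sgCEBPD 1, 2 and 4, so the highest value of all belonged to sgCEBPD 1 and the other 2 lay within the controls. In sgCEBPD 3 it was lowest, at 10.4 CPM, which is 61.3% of the mean of the other 7. The log2 fold change was -0.09 (SE 0.22, adjusted p = 0.866 in edgeR) with all libraries and 0.06 (SE 0.16, adjusted p = 0.908 in edgeR) without sgCEBPD 3. LIN28A, the paralog of embryonic stem cells, had 6 counts over the 8 libraries, with 0 in sgControl 1 and 2 and in sgCEBPD 1 and 3, 1 in sgControl 4 and sgCEBPD 2 and 4, and 3 in sgControl 3. No library exceeded the limit of 3 counts, and no fold is given. LIN28B lies at chr6:104936616-105083332 and LIN28A at chr1:26410778-26429722, both on the plus strand.

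HMGA1 is a protein that binds the minor groove of AT-rich DNA and is abundant in dividing and transformed cells. Among the members detected in every control it had the lowest coefficient of variation there, 2.00%, and also the most counts. The controls had 776, 787, 813 and 796 CPM, and sgCEBPD 1, 2 and 4 had 869, 789 and 842 CPM. In sgCEBPD 3 it was at 655 CPM, below every other library and at 80.8% of their mean. The sgCEBPD 1 and 4 libraries lay above all controls and sgCEBPD 2 within them. With all 8 libraries the log2 fold change was -0.01 (SE 0.09, adjusted p = 0.976 in edgeR), and without sgCEBPD 3 it was 0.07 (SE 0.04, adjusted p = 0.448 in edgeR). Its processed copies HMGA1P2, HMGA1P3 and HMGA1P4 had at most 8 counts in any library, so few reads were assigned to them, although the counting could have split reads of HMGA1 with other copies. HMGA1 lies at chr6:34236873-34246231 on the plus strand.

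HMGA2, the HMGA paralog of the embryo and of fetal blood stem cells, had the opposite pattern to IGF2BP1. It had 0 counts in all 4 controls and in sgCEBPD 1, and 1 count each in sgCEBPD 2 and 4. In sgCEBPD 3 it had 109 counts, or 10.7 CPM, at least 36-fold higher than the limit that 3 counts set in the control with the highest such limit. Per kb of the exon union this is 0.763 CPM, against 1.83 for LIN28B and 281 for HMGA1 in the same library. The union is 14.0 kb for HMGA2 and 5.70 kb for LIN28B, and the order of these genes depends on those lengths. Of 937 rows with at most 1 count in each of the other 7 libraries, HMGA2 ranked 11 by its level in sgCEBPD 3. PROK2, HIPK2, GPR27 and ADAM23 ranked highest. HMGA2-AS1, by its name an antisense gene of HMGA2, had 0 to 1.31 CPM elsewhere and 1.87 CPM in sgCEBPD 3 (19 counts). Exons of HMGA2 share bases with those of AC090673.1, and reads of overlapping genes cannot be told apart. HMGA2 lies at chr12:65824131-65966295 on the plus strand. It did not pass the filter on low counts in either comparison, so it has no test.

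None of the tested members passed in either comparison. With 8 libraries, 0 of 4 passed in edgeR (IGF2BP1 left out as the gene that chose the set), with 0 under an unadjusted p of 0.05 and 0 in DESeq2 and limma-voom. Without sgCEBPD 3, 0 of 5 passed in edgeR, 1 (IGF2BP2) had an unadjusted p under 0.05, and DESeq2 and limma-voom called 0. The backgrounds were the 0.0795% and 2.01% of genes called, and 11.4% and 15.5% of genes with an unadjusted p under 0.05. In all tested members the groups overlapped, whereas 4.96% of genes in the 8 libraries had every sgCEBPD library above every control and 4.62% below, and 6.89% and 7.5% in the 7. A p that misses the threshold does not show that the levels were equal.

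**Figure D3:**
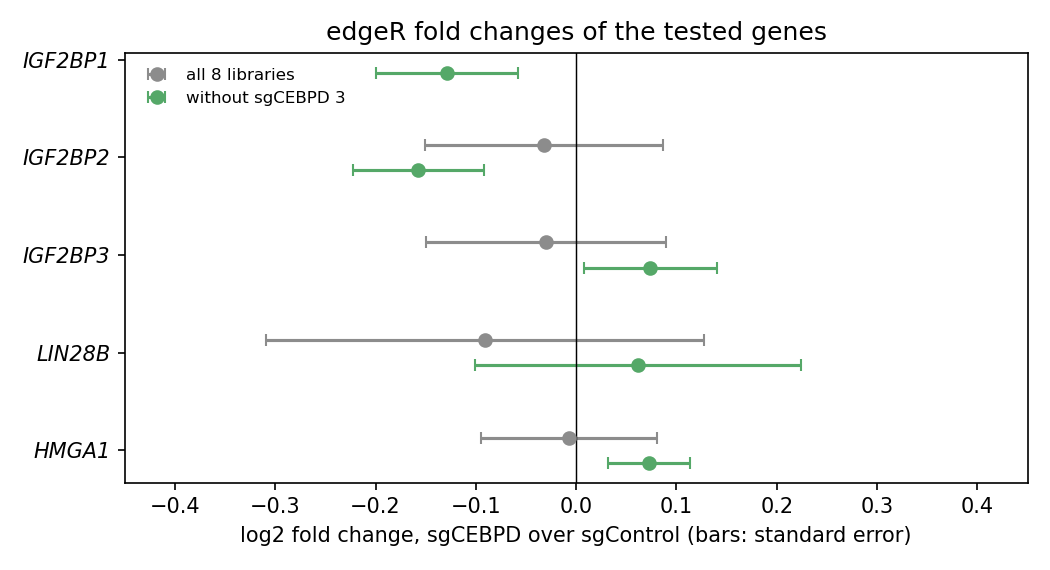
Log2 fold change of sgCEBPD over sgControl in edgeR for the members that passed the filter, with bars for the standard error; grey uses all 8 libraries and green leaves out sgCEBPD 3, and IGF2BP1 is shown only without that library. Every point lies between -0.16 and 0.07, and IGF2BP3, LIN28B and HMGA1 lie left of 0 with sgCEBPD 3 and right of 0 without it.

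In sgCEBPD 3, the tested members IGF2BP1, IGF2BP3, LIN28B and HMGA1 lay below all other 7 libraries and IGF2BP2 above them, so none of the 5 lay within. That position was common in this library: of the 13838 tested genes, 34.9% lay below all other 7 and 34.8% above. A level over 2-fold below the mean of the others was rarer, at 8.25% of genes, and of the 5 members only IGF2BP1 had it. None of the 5 was over 2-fold higher, against 7.87% of genes. HMGA2, which was not among the tested genes, was above by more than 2-fold. With a single library there is no test, and the position of IGF2BP1 was the reason for the choice.

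Cell type markers also differed in this library. Several of the monocyte and macrophage markers were present in the controls already, such as CSF1R at 387 to 503 CPM. Of 23 monocyte and macrophage markers, 12 could be tested. In sgCEBPD 3, 10 of the 12 were above all other libraries, against 34.8% of all genes. Among them were FCGR1A (CD64), which had 103 CPM against 13.2 to 28.6 elsewhere, and MSR1 at 90.3 against 3.39 to 8.61. The summed level of the list was 1467 CPM in sgCEBPD 3, 686 to 744 CPM in the controls and 669.7 to 893 CPM in sgCEBPD 1, 2 and 4. CD14 was at 41.0 CPM against at most 2.74, while CCR2 was lower, at 27.6 against 78.4 to 122 CPM. LYZ, at 80.9 CPM, lay within the 37.0 to 189 CPM of the other libraries. FCGR3A, C1QA and C1QC were above all other libraries but under 3 CPM. Of the 12 identity genes of the myeloid line, the summed level was 2320 CPM in sgCEBPD 3, 1460 to 1559 CPM in the controls and 1513 to 1721 CPM in the others. Of the 10 tested, 4 (PTPRC, SPI1, CSF2RB and CSF3R) lay above all other libraries in sgCEBPD 3, against 34.8% of all genes. Another 4 (CD34, KIT, FLT3 and MPO) lay below, against 34.9%. PTPRC, at 943 CPM against 306 to 496 elsewhere, differed most in CPM among these, and the progenitor antigen CD34 was at 7.86 against 13.4 to 104 CPM. Of 10 lymphoid and erythroid markers, 3 could be tested and the summed level was 81.5 CPM against 13.9 to 18.9, mostly from CD3D at 52.7 CPM against at most 0.459 elsewhere. CD3E and MS4A1 were not analysed here. Of 11 epithelial and mesenchymal markers, only PAX8 could be tested, and the summed level was 5.31 CPM against 3.59 to 5.87. The part of these differences in the levels of IGF2BP1, HMGA2 and the other members was not tested.

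**Figure D4:**
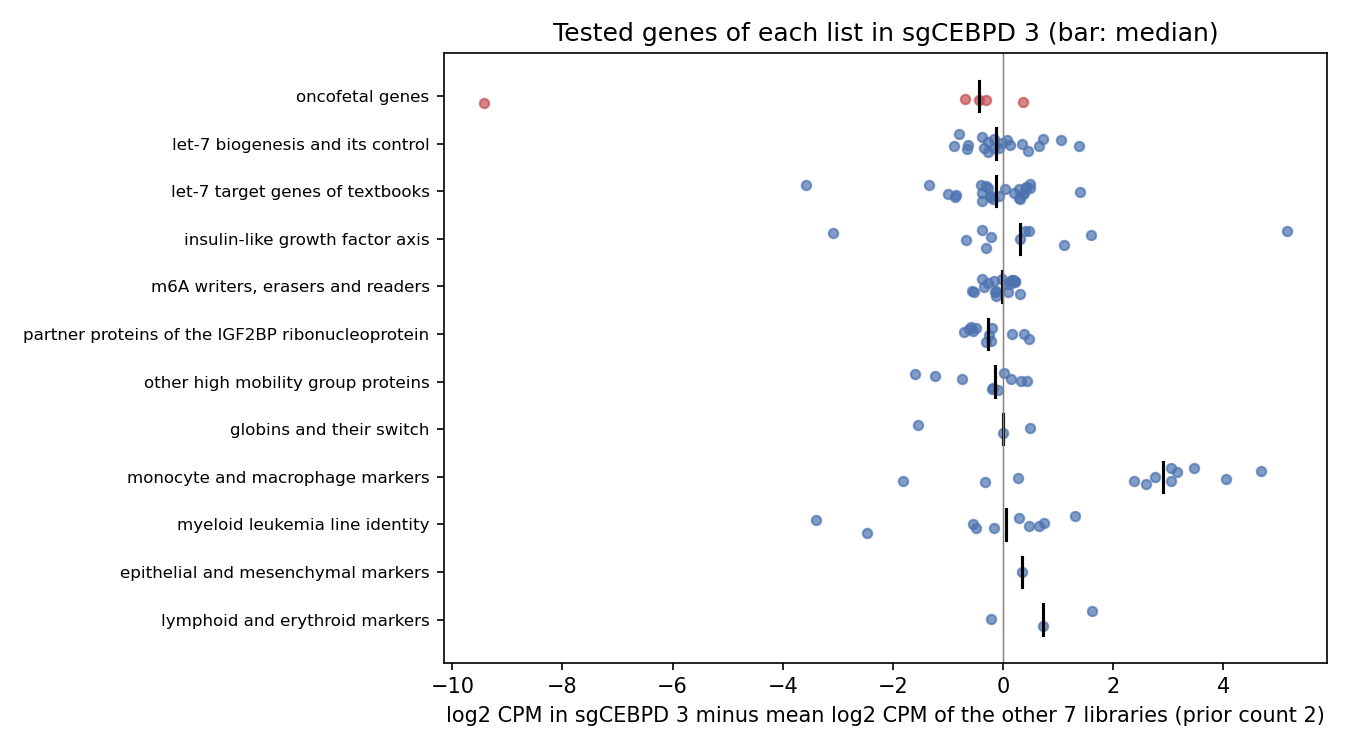
Log2 CPM (prior count 2) in sgCEBPD 3 minus the mean log2 CPM of the other 7 libraries, for each tested gene of each list, with a bar at the median; red points are the 5 tested oncofetal genes and blue points the other lists. The monocyte and macrophage markers are mostly to the right, and the point farthest to the left is IGF2BP1, whose place depends on the prior count because it had 0 counts.

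Of 21 genes in a list of let-7 biogenesis and its control, 20 were tested. The list includes Argonaute genes, TRIM71 and let-7 host transcripts. Without sgCEBPD 3, 1 passed in edgeR and 4 had an unadjusted p under 0.05, against 2.01% and 15.5% of all genes. PRKRA (PACT), a partner of Dicer, fell without sgCEBPD 3. Its mean was 67.6 ± 2.73 CPM in the controls (SD, n = 4) and 56.1 ± 1.75 CPM in sgCEBPD 1, 2 and 4 (SD, n = 3), a log2 difference of -0.27 (SE 0.06) whose adjusted p in edgeR was 0.0423. All sgCEBPD libraries, sgCEBPD 3 included at 55.6 CPM, lay below all controls. The call was lost when any of the 7 libraries was left out, with adjusted p of 0.0543 to 0.132 in edgeR, and with all 8 libraries the adjusted p was 0.202, although DESeq2 called PRKRA in both comparisons. The list's median log2 fold change was -0.05 without sgCEBPD 3 and -0.07 with it, against 0.00 for all genes. In sgCEBPD 3 the list split, with 9 of 20 below all other libraries and 6 above, against 34.9% and 34.8% of all genes. TRIM71 (LIN41), a let-7 target of the embryo, was at 50.1 CPM there against 15.1 to 24.5 elsewhere, and TUT7, which adds uridines to the let-7 precursor, at 77.8 against 34.2 to 40.2. The let-7 host transcripts MIRLET7BHG and MIRLET7A1HG were at 1.87 CPM against 2.16 to 4.18 and at 2.65 CPM against 4.36 to 5.87. TRIM71, TUT7 and the host transcripts were chosen after their values were seen, and no levels of mature let-7 follow from them.

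Of 26 let-7 targets known from textbooks besides the members, all tested, 0 passed in edgeR in either comparison. DICER1 is in this list and in the previous list. Without sgCEBPD 3 there were 4 with an unadjusted p under 0.05, against 15.5% of all genes, and DESeq2 and limma-voom called 0. INSR, the insulin receptor, was at 115 ± 8.34 CPM in the controls (SD, n = 4) and at 132 ± 10.5 CPM in sgCEBPD 1, 2 and 4 (SD, n = 3), with a log2 fold change of 0.20 (adjusted p = 0.200 in edgeR). NRAS was at 115 ± 2.33 and 124 ± 2.70 CPM (adjusted p = 0.235 in edgeR). In sgCEBPD 3, 12 of 26 lay below all other libraries and 11 above, against 34.9% and 34.8% of all genes. The list thus had no common direction there. MYC, whose mRNA IGF2BP1 binds, was at 471 CPM in sgCEBPD 3 against 774 to 964 CPM elsewhere, and the cell cycle phosphatase gene CDC25A at 30.8 against 65.9 to 82.7. TGFBR1, a receptor of TGF-beta, was higher, at 304 against 101 to 125 CPM. These 3 were picked after their values were seen.

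In the insulin-like growth factor axis, 17 of 24 genes were matched and 11 were tested. None passed in edgeR. Without sgCEBPD 3 there were 4 with an unadjusted p under 0.05, against 15.5% of all genes, and no call by DESeq2 or limma-voom. With all 8 libraries there were 3, against 11.4% of all genes, and DESeq2 called IGF2R. IGF2R, which clears IGF2 from the surface, was at 169 ± 38.0 CPM in the controls (SD, n = 4) and at 234, 277 and 242 CPM in sgCEBPD 1, 2 and 4. In sgCEBPD 3 it was at 429 CPM. Its log2 fold change was 0.57 (SE 0.18, adjusted p = 0.221 in edgeR) without sgCEBPD 3 and 0.80 (adjusted p = 0.292 in edgeR) with it. PLAG1, a known activator of IGF2, was at 38.5 ± 1.02 CPM in the controls (SD, n = 4) and at 43.6 ± 2.48 CPM in sgCEBPD 1, 2 and 4 (SD, n = 3; adjusted p = 0.219 in edgeR). Among the binding proteins, IGFBP5 had 0 counts in 7 libraries and 23.2 CPM in sgCEBPD 3, and IGFBP2 was at 34.2 CPM there against 0 to 10.9 CPM. IGFBP4 was at 175 CPM against 252 to 319. The receptor IGF1R was at 123 CPM in sgCEBPD 3 against 141 to 169.7. IGF2R, the binding proteins and IGF1R were chosen after their values were seen.

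In the lists nearest to IGF2BP function no gene was called, where 2.01% of all genes were called without sgCEBPD 3, so lists of this size say little by their counts. Of 19 m6A writers, erasers and readers, 0 passed in edgeR in either comparison, and DESeq2 and limma-voom called 0. Without sgCEBPD 3, 1 had an unadjusted p under 0.05, against 15.5% of all genes. VIRMA, a scaffold of the writer complex, was at 145 ± 2.33 CPM in the controls (SD, n = 4) and at 156 ± 7.86 CPM in sgCEBPD 1, 2 and 4 (SD, n = 3; adjusted p = 0.279 in edgeR). FTO, a demethylase, was at 51.1 ± 2.27 and 45.4 ± 5.67 CPM (adjusted p = 0.368 in edgeR). Of 12 partner proteins found in IGF2BP ribonucleoproteins, 0 passed in edgeR, and DESeq2 and limma-voom called 0. Without sgCEBPD 3, 2 had an unadjusted p under 0.05, against the same 15.5% of all genes. PABPC1, the poly(A)-binding protein, was at 2762 ± 130 and 2992 ± 92.5 CPM (adjusted p = 0.223 in edgeR), and YBX1 was at 1359 ± 49.7 and 1457 ± 51.1 CPM (adjusted p = 0.269 in edgeR). In sgCEBPD 3, 9 of the 12 partners lay below all other libraries and 2 above, with a median difference of -0.27 on the log2 scale. The m6A list split there into 8 below and 6 above. Of all genes, 34.9% lay below and 34.8% above in that library.

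Other high mobility group genes did not follow HMGA2. Of 10 tested, 0 passed in edgeR. Without sgCEBPD 3, 1 had an unadjusted p under 0.05, against 15.5% of all genes, and DESeq2 called HMGN1. HMGN1, which loosens nucleosomes, was at 422 ± 4.56 CPM in the controls (SD, n = 4) and at 461 ± 15.2 CPM in sgCEBPD 1, 2 and 4 (SD, n = 3; adjusted p = 0.130 in edgeR and 0.0470 in DESeq2). HMGB1 was at 706 ± 13.5 and 743 ± 31.5 CPM (adjusted p = 0.417 in edgeR). In sgCEBPD 3, 6 of the 10 lay below all other libraries, as HMGA1 did, and 3 above, against 34.9% and 34.8% of all genes. HMGN3, at 14.6 against 31.6 to 37.8 CPM, and HMGN5, at 9.63 against 21.6 to 36.0 CPM, were among the 6 and were chosen after their values were seen.

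Fetal and adult globin control is a further setting in which LIN28B and IGF2BP1 are known regulators. Of 12 genes in that list only 3 could be tested, and HBB, HBG1 and HBG2 were not analysed here. MYB, a factor of blood progenitors, was at 499 ± 30.04 CPM in the controls (SD, n = 4) and at 406 ± 36.3 CPM in sgCEBPD 1, 2 and 4 (SD, n = 3), with a log2 fold change of -0.30 (adjusted p = 0.0563 in edgeR and 0.00246 in DESeq2). BCL11A, the repressor of fetal globin, was at 91.4 ± 8.36 and 78.2 ± 4.76 CPM (adjusted p = 0.182 in edgeR). It was at 29.3 CPM in sgCEBPD 3, against 72.8 to 102 CPM elsewhere. Of all tested genes, 34.9% were lowest in that library, and 8.25% were over 2-fold below the mean of the other 7, as BCL11A was.

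Of 10 tested myeloid identity genes, 3 passed without sgCEBPD 3, against 2.01% of all genes. PTPRC rose (log2 fold change 0.44, adjusted p = 0.0305 in edgeR), while CD33 fell (-0.35, adjusted p = 0.0199 in edgeR) and CSF3R, the G-CSF receptor, fell (-0.62, adjusted p = 0.0117 in edgeR). In sgCEBPD 3, CSF3R was at 418 CPM, above the controls at 288 to 308 CPM, and with all 8 libraries its log2 fold change was -0.26 (adjusted p = 0.688 in edgeR). PTPRC in sgCEBPD 3 lay above all controls and CD33, at 106 CPM, below them. Leaving out sgControl 1 took the adjusted p of each over 0.05 (0.0794, 0.0576 and 0.0506 in edgeR). Of 3 tested lymphoid and erythroid markers, CD79A fell. It was at 5.42 ± 0.372 CPM in the controls (SD, n = 4) and at 2.05 ± 0.618 CPM in sgCEBPD 1, 2 and 4 (SD, n = 3; log2 fold change -1.39, adjusted p = 0.0149 in edgeR). Without sgControl 1 its adjusted p was 0.0560 in edgeR. Of the 12 tested monocyte and macrophage markers 0 passed in edgeR in either comparison, and DESeq2 called MRC1. In each comparison 5 had an unadjusted p under 0.05, against 11.4% of all genes with 8 libraries and 15.5% without sgCEBPD 3. MARCO was at 1.33 ± 0.175 and 0.547 ± 0.152 CPM (adjusted p = 0.0829 in edgeR) and MSR1 at 4.47 ± 0.742 and 6.87 ± 1.64 CPM (adjusted p = 0.182 in edgeR). PAX8 was at 4.16 ± 0.502 and 3.77 ± 0.281 CPM (adjusted p = 0.780 in edgeR). With all 8 libraries 0 genes of any of the 11 lists passed in edgeR, while DESeq2 called PRKRA, IGF2R, MRC1, CD33 and CD79A.

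The genes around IGF2BP1 and HMGA2 were examined over 500 kb on each side, a window chosen after the values were seen. Around IGF2BP1, 12 genes were tested, and in sgCEBPD 3, 5 lay above all other libraries, 2 below and 5 within. Of all genes, 34.8% lay above and 34.9% below. CALCOCO2, an autophagy receptor before IGF2BP1, was at 13.3 CPM against 0.581 to 1.45 elsewhere, and PHOSPHO1, a phosphatase after it, at 18.4 against 0.636 to 4.54 CPM. UBE2Z was at 125 CPM against 79.8 to 88.2. The 2 below were ATP5MC1, at 34.9 against 70.4 to 81.0 CPM, and PHB, at 65.4 against 103 to 114 CPM. HOXB3 and HOXB4 were slightly above, at 27.9 against 19.8 to 26.3 CPM and at 35.0 against 27.2 to 31.6 CPM. None of these neighbours was at 0, so the absence of counts held for IGF2BP1 and not for the tested genes on either side. The nearest of them were SNF8, which ends at 48945117, and PHOSPHO1, which starts at 49223362 on chromosome 17. No protein-coding gene nearer to IGF2BP1 was tested, and the cause of its absence was not tested. Around HMGA2, 6 genes were tested, with LLPH above (28.2 against 23.1 to 27.6 CPM), IRAK3 below (152 against 164 to 249.8 CPM) and 4 within. IRAK3 encodes a kinase-like brake on Toll-like receptor signals.

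**Figure D5:**
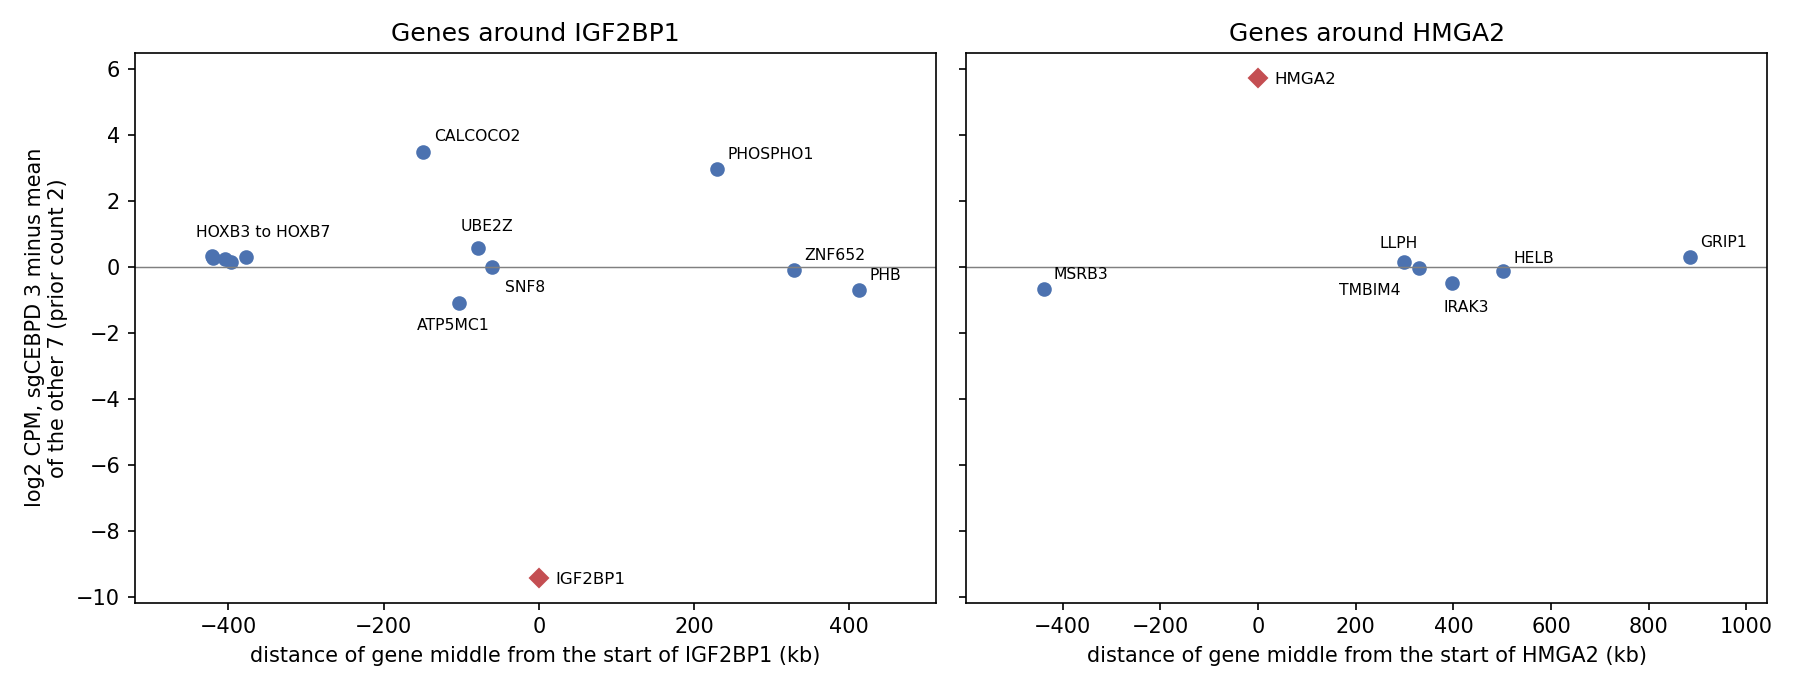
Log2 CPM (prior count 2) in sgCEBPD 3 minus the mean of the other 7 libraries, against the distance in kb of each tested gene's middle from the start of IGF2BP1 (left) or HMGA2 (right); red diamonds are the 2 genes themselves and blue circles their tested neighbours. CALCOCO2 and PHOSPHO1 lie above 0 on either side of IGF2BP1, which is far below, and the neighbours of HMGA2 lie near 0.

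The genes whose pattern was most like each member were found by Pearson's r of log2 CPM (prior count 2) among 12374 genes with a mean of at least 2 CPM, as a description with no p. Over the 8 libraries, LRRC47, DDX43 and CLSPN were most like IGF2BP1 (r = 0.998 to 0.999), correlations that rest on the far value of sgCEBPD 3. GPR27, GOLGA2 and SDCBP were most like HMGA2 (r = 0.995 each), with the same library as the far point. For IGF2BP2 they were HUS1, ETV6 and ACVR1B (r = 0.972 to 0.982), for IGF2BP3 TMTC4, HIRIP3 and MELK (r = 0.974 to 0.979), for LIN28B DDX19A, KIAA1586 and RIC8A (r = 0.965 to 0.971), and for HMGA1 ECPAS, MTSS2 and PTCD3 (r = 0.984 to 0.993). Over the 7 libraries without sgCEBPD 3, ANKRD13D, INPP5E, SRR and MRPS26 were among the genes most like IGF2BP1 (r = 0.975 to 0.992). With so few points, high values of r are common among so many genes.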

How the data were processed

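The authors deposited a single table of unnormalised read counts, with a row for each gene and a column for each of the 8 libraries. The submitters' processing notes name hg38, HISAT2, FastQC and DESeq2, with no roles or versions. Counting tool, strand setting and annotation are not given in the sources used here. Tests were run with edgeR 4.0.16 in R 4.3.3: filterByExpr with the group, TMM scaling, a robust quasi-likelihood test with the group as the only term, and Benjamini-Hochberg adjustment over all genes tested (threshold 0.05). CPM are counts divided by the TMM-scaled library size. The standard error (SE) of a log2 fold change was taken from the quasi-likelihood F. DESeq2 1.42.0, limma-voom (limma 3.58.1), other scaling, filters and thresholds, the guide number as a block, and each library left out were alternatives. The members and the 11 gene lists (180 entries) were chosen with earlier results of these data known. From each list, up to 4 genes past the threshold by lowest p were named, or else up to 2 with the lowest p without sgCEBPD 3. Other genes are marked where they were chosen after their values were seen. A gene that these rules would name is not reported here.

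The labels do not state that libraries came from separate cultures, so a p-value here measures no more than the spread among these libraries, guides included, which may be technical. Intervals from counts of 0 use 3 counts per library. On simulated counts with known changes, edgeR recovered 30.1%, 72.7% and 85.5% of genes changed 1.5-fold, 2-fold and 4-fold in the comparison of 8 libraries (13614 genes tested), and 49.4%, 77.6% and 95.1% without sgCEBPD 3 (13859 genes tested). Of the calls, 4.07% and 4.03% were unchanged genes. Simulated libraries did not include one that stands apart. Positions and 3′ UTRs came from GENCODE 29 on GRCh38, the build named hg38, and microRNAs from RefSeq on GRCh38.p14. The first search for let-7 sites used only the longest 3′ UTR of each gene and was widened to all basic protein-coding transcripts after its result was seen.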

Additional observations from a re-analysis of the deposited data

Results flagged for a closer look

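HMGA2 in sgCEBPD 3 stood far from the other 3 libraries of its group. It was at 10.7 CPM there, and the next highest of the 4 sgCEBPD libraries was at 0.0946 CPM. Of 11 groups of 4 values examined, only this 1 exceeded the 95% critical value of Dixon's gap ratio for its farthest library. Chance is taken to exceed it in about 1 of 20 groups, or 0.55 of the 11. With 0, 1 and 1 counts in sgCEBPD 1, 2 and 4, any library with many counts brings the ratio near 1, so that rate does not apply. That sgCEBPD 3 stands apart was also known beforehand, and the ratio is a description only. IGF2BP1, which chose the set, was not among the values examined.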

How the results depend on the processing

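No tested member passed the threshold under any alternative run. The lowest adjusted p was 0.0735 in edgeR, for IGF2BP1 without sgCEBPD 3 and 4, where the log2 fold change was -0.23. The count of genes called depended on the setting. Against 11 genes with 8 libraries, DESeq2 called 292, no filter gave 20, the replicate block by guide number 1, and an adjusted p under 0.01 gave 1. Leaving out each library in turn gave 0 (without sgCEBPD 2) to 283 (without sgCEBPD 3). Against 283 genes without sgCEBPD 3, DESeq2 called 596, an adjusted p under 0.01 gave 40, and the replicate block 352. Leaving out a further library gave 66 (without sgControl 1) to 312 genes.

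Directions turned only when a library was left out. With 8 libraries the log2 fold changes then ranged from -0.157 to 0.0380 for IGF2BP2 (0.0380 without sgCEBPD 2, 0.0139 without sgCEBPD 4), from -0.120 to 0.0739 for IGF2BP3, from -0.315 to 0.0615 for LIN28B and from -0.0534 to 0.0726 for HMGA1. For the last 3 the value without sgCEBPD 3 was the positive end, and HMGA1 was at 0.0035 without sgControl 3. Without sgCEBPD 3, LIN28B ranged from -0.165 (also without sgCEBPD 1) to 0.177, and it was at -0.0084 without sgControl 1. The cause of these changes was not tested. Same-numbered libraries did not deviate together: correlations were -0.08 to 0.06 with 8 libraries and 0.01 to 0.08 with 7, and only number 2 correlated best with its own number. In the block without sgCEBPD 3 the adjusted p of PRKRA was 0.0980 and that of MYB 0.0160 in edgeR. CD33 also lost its call without sgControl 3, sgCEBPD 1 or sgCEBPD 2, PTPRC without sgControl 3, sgControl 4, sgCEBPD 1 or sgCEBPD 2, and CD79A without sgCEBPD 1. LIN28A and HMGA2 had too few counts for a test.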
